A study of Mus musculus with 19 samples.

Results

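The genes described here are 33 members of the pathway of ATF4, the transcription factor of the response to amino acid shortage, out of 55359 genes in the count tables of the series. They were chosen by name as known members of the pathway and sorted by role into 14 regulators, 11 enzymes of amino acid and one-carbon metabolism, and 8 amino acid transporters. The group called regulators also holds stress genes of other kinds, such as the enzyme Chac1, the secreted glycoprotein Stc2 and the lipoprotein receptor Vldlr. All 33 were found in the count tables. The cells were cultured B16-F10, a melanoma line from C57BL/6 mice, with either a scrambled control (SCR) or a Mettl5 knockout (KO), grown without tumour or host. METTL5 is a methyltransferase that modifies the RNA of the small ribosomal subunit. Input RNA and ribosome footprints, the RNA pieces that ribosomes shield from nuclease, were each sequenced from 2 SCR and 2 KO libraries, 8 in all, of the 19 samples of the series. Footprint cells had received cycloheximide (100 µg/ml, 8 min), which halts ribosomes on the RNA, in both genotypes. The labels do not say whether the KO is 1 clone or a mixture, nor that each library is a culture of its own. The p-values therefore measure only the spread between these libraries.

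Total gene counts ran from 38968000 to 48692578 in the input RNA libraries and from 28059683 to 31301806 in the SCR footprints, against 14555963 and 21366608 in the KO footprints. The KO columns of the count tables are named POOL and were taken as KO because the other columns are named SCR. What POOL stands for is not stated, so the name does not settle whether the KO is a clone or a mixture. Levels are given as CPM, counts scaled to the size of the library with TMM factors. In input RNA, SCR cells had 9.23 and 9.41 CPM of Mettl5 itself and KO cells 6.46 and 6.21, a log2 fold change of -0.56 (SE 0.129, edgeR quasi-likelihood test, adjusted p = 0.0284). The fall is partial. All 7 markers of melanoma cells passed the filter on low counts; in input RNA 2 rose (Dct and Mlana) and 2 fell (Mitf and Tyr), and in translational efficiency 2 fell (Mlana and Pmel). Of 10 markers of leukocytes, fibroblasts, endothelium and keratinocytes, 4 passed the filter in input RNA, led by Pdgfrb at 6.87 to 10.0 CPM. Of these Col3a1 fell in input RNA, from 0.400 and 0.387 CPM to 0 in both KO libraries, while its footprint counts were 16 and 8 in SCR against 33 and 10 in KO. Cd68 fell in footprints, from 7.16 and 6.68 CPM to 3.89 and 3.59 (edgeR adjusted p = 0.0453). The part of these markers in the results was not tested.

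ATF4 is made when the initiation factor eIF2 is phosphorylated by one of its kinases, for example GCN2 when amino acids run short. Its messenger RNA carries upstream open reading frames (ORFs) that hold ribosomes away from the ATF4 coding sequence in fed cells and let them reach it when eIF2 is phosphorylated. ATF4 then binds DNA, often with a C/EBP partner, and raises the transcription of genes that import amino acids, make serine, proline and asparagine, and charge transfer RNAs. Tumour cells lean on these genes for growth.

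ATF4 and its C/EBP partners bind a composite element whose core is written here as TGATGNAA. It was searched on both strands of promoter sequences of 300 bases (250 before to 50 after each start site, RefSeq, build GRCm38.p6), and 30 of the 33 members had at least 1 such sequence. The letters were present in 9 of those 30: Asns, Chac1, Nupr1, Pck2, Pycr1, Slc1a4, Slc7a11, Trib3 and Vldlr. Over all genes with a promoter sequence the share was 4.51% (1219 of 27025), and over all promoter sequences 3.97% (1304 of 32851). The windows below show the element in members of the 3 roles, each 5′ to 3′ along the gene, with the letters of the element in capitals. The Asns window is the minus strand of chr6:7693210-7693258 and the element begins 23 bases before the start site. For Chac1 it is the plus strand of chr2:119351023-119351082, for Pycr1 the minus strand of chr11:120643818-120643877 and for Pck2 the plus strand of chr14:55540137-55540196. For Slc7a11 it is the minus strand of chr3:50443646-50443705, where a second copy in the other orientation follows in lower case.
Asns: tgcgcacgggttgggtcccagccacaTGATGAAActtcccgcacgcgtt
Chac1: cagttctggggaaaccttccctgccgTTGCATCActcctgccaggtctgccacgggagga
Pycr1: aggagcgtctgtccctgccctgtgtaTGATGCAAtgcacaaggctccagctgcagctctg
Pck2: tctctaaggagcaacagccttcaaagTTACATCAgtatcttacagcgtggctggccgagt
Slc7a11: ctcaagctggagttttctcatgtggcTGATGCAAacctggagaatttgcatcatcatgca
A match describes the letters and not a bound site. In Asns, Pycr1 and this Slc7a11 copy the element lies in the orientation TGATGNAA, and in Chac1 and Pck2 in the reverse complement, TTNCATCA. Of the 8 members with the letters that were tested in input RNA, 2 rose in KO cells (Asns and Slc7a11), with a median log2 fold change of 0.09. Of the 20 tested members with a promoter sequence but without the letters, 9 rose, with a median of 0.16. The difference between these sets was not tested.

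In KO cells the RNA of 13 amino acid stress genes rose, and no rise in their footprints passed the test. Of the 31 members tested in input RNA, 13 rose and 0 fell, with a median log2 fold change of 0.16 against -0.01 over all 20025 genes tested. Over all genes, 9.56% rose and 7.21% fell. In footprints 0 of 31 members rose and 2 fell (Ddit4 and Pck2), with a median of -0.16 against 0.01, where 0.51% of all 16878 genes rose and 1.78% fell. Translational efficiency, here the change of footprints relative to input RNA, fell in 7 of 31 members and rose in 0, with a median of -0.40 against -0.05. Over all 23211 genes of that fit, 3.4% fell and 0.788% rose. These include genes that passed the filter on low counts in only 1 assay. An alternative fit, chosen after seeing the data, held the 13779 genes that passed in both assays. In it 1062 genes fell and 502 rose, and 9 of the 31 members fell. By edgeR 0 of the 13 members that rose in RNA were called in footprints, where DESeq2 called 3 of them lower (Slc38a2, Slc7a1 and Slc7a11). Their footprint log2 fold changes ran from -0.41 to 0.16, 7 of them below 0.

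The tests were edgeR quasi-likelihood F tests with Benjamini-Hochberg adjustment over all genes, called at an adjusted p below 0.05. A value that did not pass may still hold a change. Where the libraries of the groups are said to lie apart, the share of all genes that do so was not counted. At an unadjusted p below 0.05, 1 member was lower in input RNA, 3 were higher in footprints and 1 was higher in translational efficiency. DESeq2 called 0 members in each of these directions. Over all genes DESeq2 called more than edgeR, with 966 lower in footprints (301 by edgeR) and 1409 lower in efficiency (790 by edgeR). The efficiency fit holds the libraries of both assays, so its calls are not independent of the RNA calls: all 7 members that fell in efficiency had also risen in RNA. Counts of RNA rises went from 13 to 7 without SCR library 1 and to 8 without SCR library 2 of input RNA. Calls in efficiency went from 7 to 0 without SCR library 1, SCR library 2 or KO library 1 of input RNA and to 4 without KO library 2, and both footprint calls ended without any 1 of the 4 footprint libraries. With library totals in place of TMM scaling the split over all genes became 1449 rises and 2240 falls in input RNA (1915 and 1443 with TMM), 439 and 234 in footprints (86 and 301) and 1011 and 305 in efficiency (183 and 790). The median of all genes moved to 0.12 in footprints and to 0.15 in efficiency, and the members' median in efficiency lay -0.33 from it, against -0.35 with TMM.

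**Figure D1:**
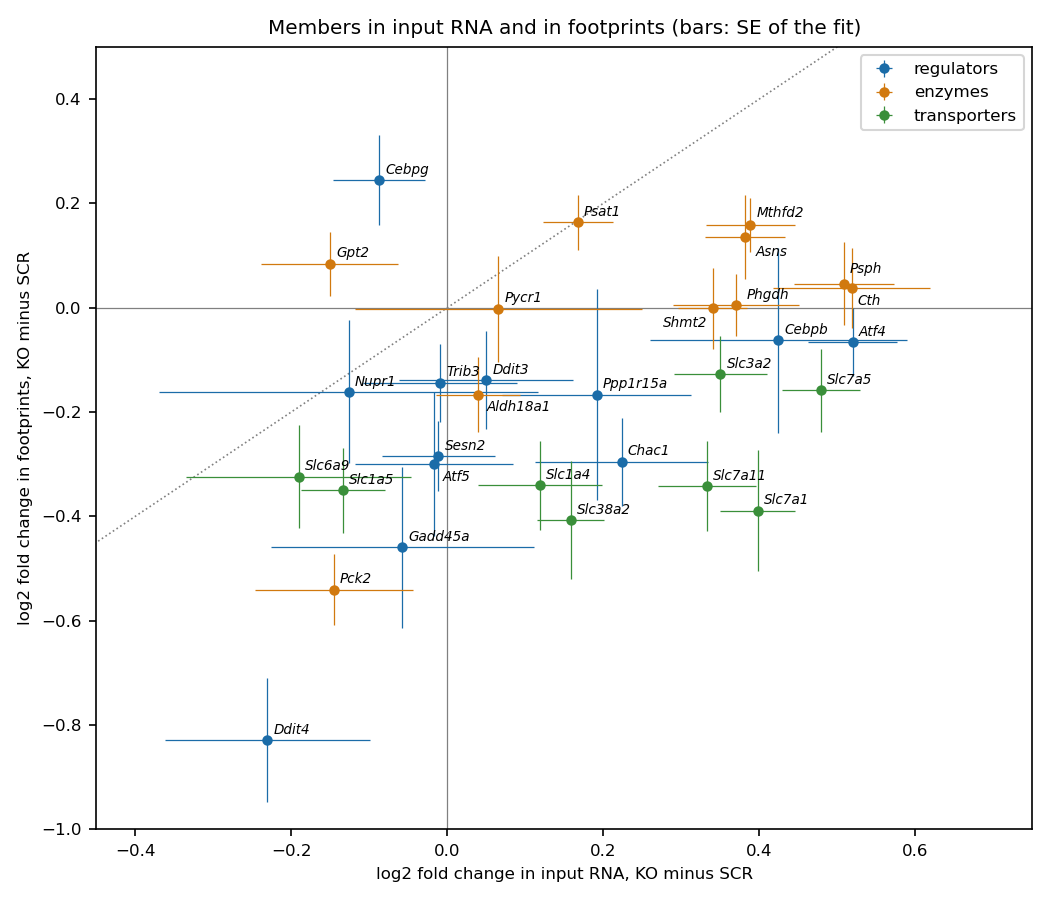
Log2 fold change (KO minus SCR) of each tested member in input RNA (x axis) and in footprints (y axis), coloured by role; bars are the SE of the fit and the dotted line marks equal change. All 13 members that rose in RNA lie to the right of 0, with footprint values between -0.41 and 0.16.

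Among the regulators, the RNA of Atf4 itself was higher in KO cells while its footprints were not. SCR cells had 197 and 183 CPM of Atf4 RNA and KO cells 280 and 264. On its footprints the values were 137 and 146 CPM in SCR against 131 and 139 in KO. Both KO libraries lay above both SCR libraries in RNA, and in footprints the groups overlapped. The log2 fold change was 0.52 in RNA (SE 0.0571, edgeR adjusted p = 0.00349), -0.07 in footprints (SE 0.0651, adjusted p = 0.578) and -0.63 in translational efficiency (SE 0.094, adjusted p = 0.0231). Footprints per RNA on Atf4 were thus 0.648 times the SCR level. Footprints were counted per gene, so those on its upstream ORFs were not told apart from those on its coding sequence. In the authors' deposited table its efficiency ratio was 0.418 in SCR and 0.268 in KO, a log2 fold change of -0.64 with an adjusted p of 0.000518.

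Ddit4, which encodes REDD1, an inhibitor of mTORC1 signalling, was the regulator called in footprints. Its footprints were at 29.2 and 23.8 CPM in SCR against 14.7 and 15.1 in KO, and its RNA at 14.5 and 12.1 CPM in SCR against 11.8 and 10.8 in KO. The KO libraries were below both SCR libraries in both assays. The footprint log2 fold change was -0.83 (SE 0.119, edgeR adjusted p = 0.0494), the RNA change -0.23 (adjusted p = 0.276) and the efficiency change -0.64 (adjusted p = 0.0913). The footprint call ended on leaving out any 1 of the 4 footprint libraries and with library totals as scaling.

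Of the 12 regulators tested, 1 rose in RNA (Atf4), 1 fell in footprints (Ddit4) and 1 fell in efficiency (Atf4). Over all genes tested, 9.56% rose in RNA, 1.78% fell in footprints and 3.4% fell in efficiency. The median RNA log2 fold change of the regulators was -0.01, as was that of all genes, so as a set their RNA did not stand above all genes. In footprints 11 of 12 had a log2 fold change below 0, median -0.16, and in efficiency 11 of 12, median -0.36; with library totals as scaling 9 of 12 were below 0 in each. Cebpg, a C/EBP protein that pairs with ATF4, lay the other way. Its RNA was at 45.7 and 45.9 CPM in SCR against 42.3 and 43.9 in KO, and its footprints at 22.4 and 24.6 CPM in SCR against 26.6 and 29.1 in KO. The groups did not overlap in either assay, with an efficiency log2 fold change of 0.29 that did not pass (SE 0.113, edgeR adjusted p = 0.201); with library totals as scaling it did pass.

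Trib3, a pseudokinase induced by ATF4 that feeds back on it, had 20.9 and 18.4 CPM of RNA in SCR against 19.9 and 19.2 in KO, and 71.4 and 64.9 CPM of footprints in SCR against 59.8 and 63.5 in KO. Its log2 fold changes of -0.01 in RNA and -0.14 in footprints did not pass. The stress-induced transcription factors Ddit3 (CHOP), Cebpb and Atf5 did not pass by edgeR in any comparison, while DESeq2 called Cebpb higher in RNA. Their log2 fold changes in RNA were 0.05, 0.42 and -0.02, and in footprints -0.14, -0.06 and -0.30, in that order. Chac1, an enzyme that degrades glutathione, was at 0.22 in RNA and -0.30 in footprints, with the KO libraries above both SCR libraries in RNA and below both in footprints. Its efficiency change of -0.56 (SE 0.134) had an edgeR adjusted p of 0.0633, and in the authors' deposited table a log2 fold change of -0.57 with an adjusted p of 0.0194.

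Sesn2, a leucine sensor upstream of mTORC1, was at -0.01 in RNA and -0.28 in footprints (adjusted p = 0.0942, edgeR). Ppp1r15a, the stress-induced subunit that directs a phosphatase to eIF2, was at 0.19 in RNA and -0.17 in footprints. Gadd45a, a growth arrest gene, was at -0.06 and -0.46, and Nupr1, a small stress protein of chromatin, at -0.13 and -0.16. None of these values passed the test. Stc2, a secreted glycoprotein, and Vldlr, a lipoprotein receptor, had 0 input RNA counts in all 4 libraries and were not tested. Footprint counts of Stc2 were 2 and 3 in the SCR libraries against 0 and 0 in KO, and those of Vldlr 7 and 7 against 4 and 9.

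**Figure D2:**
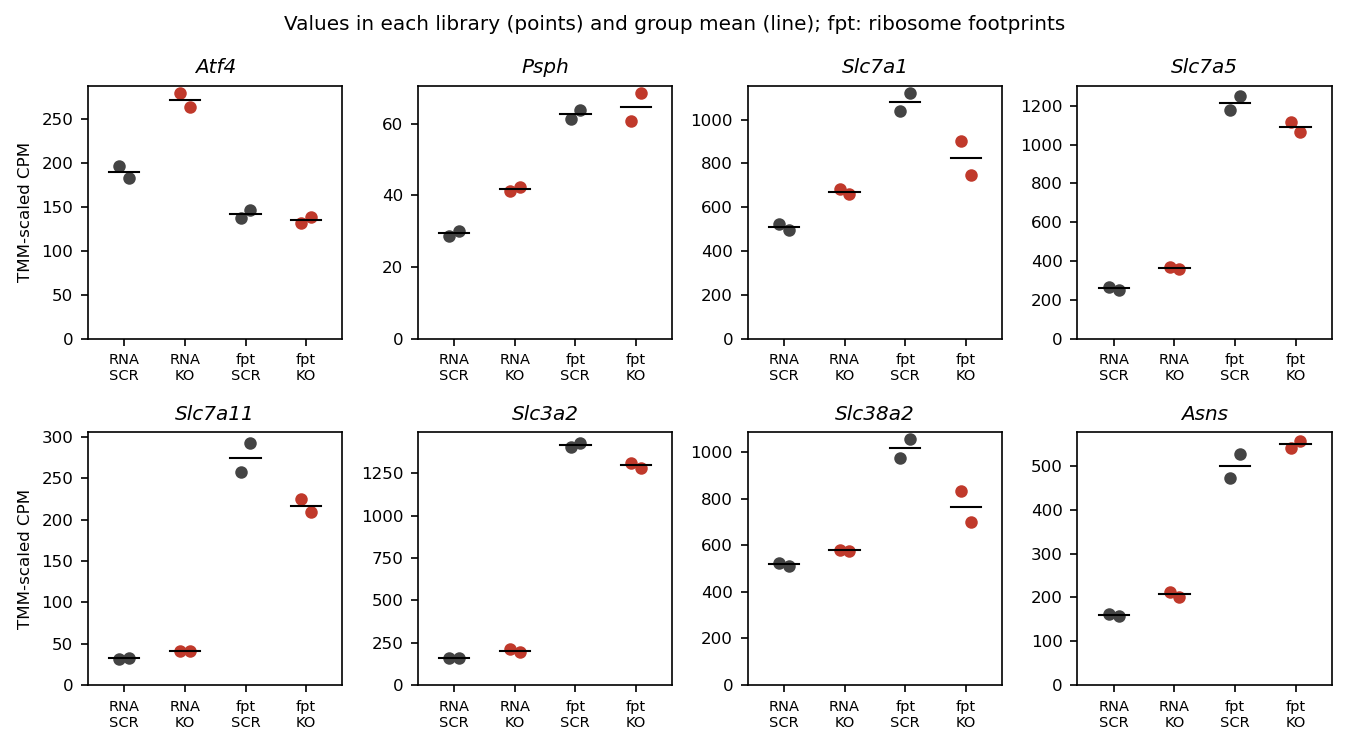
TMM-scaled CPM (y axes start at 0) of Atf4, Psph, 5 transporters and Asns in each library of input RNA and footprints (fpt); points are libraries and lines are means of 2. In all 8 genes, each called as a rise in RNA, both KO libraries lie above both SCR libraries in RNA. In the footprints of the 5 transporters both KO libraries lie below, while by library totals the groups of Slc7a5 and Slc3a2 overlap. The share of all genes whose groups lie apart was not counted.

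Of the 11 enzymes, 7 rose in input RNA and 0 fell, with a median log2 fold change of 0.34, and 0 rose and 1 fell (Pck2) in footprints, with a median of 0.04. The serine pathway, which turns a glycolytic intermediate into serine and glycine, rose in RNA at each of its steps measured here. Phgdh, its first enzyme, was at 335 and 330 CPM of RNA in SCR against 468 and 391 in KO, and at 73.3 and 77.1 CPM of footprints in SCR against 74.2 and 76.7 in KO. The RNA log2 fold change was 0.37 (SE 0.081, edgeR adjusted p = 0.0236) and the footprint change 0.00 (SE 0.0599), where the groups overlapped. The RNA call was lost without SCR library 1 or SCR library 2.

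Psat1, the aminotransferase of the middle step, was at 248 and 245 CPM of RNA in SCR against 280 and 274 in KO. Its footprints were at 212 and 213 CPM in SCR against 237 and 239 in KO. Both assays had both KO libraries above both SCR libraries, with log2 fold changes of 0.17 in RNA (SE 0.045, edgeR adjusted p = 0.0455) and 0.16 in footprints (SE 0.0528, adjusted p = 0.152), so that its efficiency value was -0.04. The RNA call of Psat1 was lost without SCR library 1, SCR library 2 or KO library 1 of input RNA, and with library totals as scaling.

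Psph, the phosphatase that completes serine, was the enzyme called in translational efficiency by edgeR, while DESeq2 called 7 of 11 lower (Asns, Cth, Mthfd2, Pck2, Phgdh, Psph and Shmt2). Its RNA was at 28.7 and 30.0 CPM in SCR against 41.2 and 42.3 in KO, and its footprints at 61.4 and 63.9 CPM in SCR against 60.7 and 68.5 in KO. RNA was higher in both KO libraries and the footprint groups overlapped. The log2 fold change was 0.51 in RNA (SE 0.0641, edgeR adjusted p = 0.00511), 0.05 in footprints (SE 0.0798) and -0.50 in efficiency (SE 0.108, adjusted p = 0.049). The efficiency call ended in 11 of 14 alternatives, which included leaving out any 1 library but KO library 2 of footprints.

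The mitochondrial one-carbon enzymes Shmt2, which splits serine into glycine, and Mthfd2, which oxidises the folate carrier, also rose in RNA. Shmt2 was at 309 and 305 CPM of RNA in SCR against 394 and 384 in KO, a log2 fold change of 0.34 (SE 0.0446, edgeR adjusted p = 0.0057). Mthfd2 was at 148 and 137 CPM in SCR against 191 and 183 in KO, a log2 fold change of 0.39 (SE 0.0569, adjusted p = 0.00765). In footprints Shmt2 was at 305 and 284 CPM in SCR against 308 and 280 in KO, which overlapped. Mthfd2 footprints were at 143 and 143 CPM in SCR against 159 and 160 in KO, above SCR in both KO libraries but not past the test (0.16, adjusted p = 0.159).

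Asns, which makes asparagine, was at 161 and 157 CPM of RNA in SCR against 213 and 202 in KO, and at 473 and 528 CPM of footprints in SCR against 543 and 557 in KO. The KO libraries lay above both SCR libraries in both assays, with a log2 fold change of 0.38 in RNA (SE 0.0514, edgeR adjusted p = 0.00611) and of 0.14 in footprints (SE 0.0803, adjusted p = 0.36). Cth, which makes cysteine from cystathionine, was at 12.6 and 11.8 CPM of RNA in SCR against 17.4 and 17.5 in KO, a log2 fold change of 0.52 (SE 0.101, adjusted p = 0.0166). Its footprints, 23.6 and 25.9 CPM in SCR against 25.4 and 25.4 in KO, overlapped, and its efficiency value of -0.52 lay at the edge of the threshold (edgeR adjusted p = 0.0501). The RNA call of Cth was lost without SCR library 1 or SCR library 2.

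Pck2, the mitochondrial enzyme that makes phosphoenolpyruvate, was the enzyme that fell in footprints. Its footprints were at 143 and 154 CPM in SCR against 105 and 99.5 in KO, and its RNA at 41.9 and 38.5 CPM in SCR against 39.9 and 32.7 in KO. The footprint groups were apart and the RNA groups overlapped. The footprint log2 fold change was -0.54 (SE 0.068, edgeR adjusted p = 0.0414) and the RNA change -0.15 (SE 0.101, adjusted p = 0.369). The call of Pck2 ended on leaving out any 1 of the 4 footprint libraries.

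The proline enzymes Aldh18a1, which starts proline synthesis from glutamate, and Pycr1, which completes it, did not pass in any comparison. Aldh18a1 had log2 values of 0.04 in RNA and -0.17 in footprints, and Pycr1 0.07 and -0.00. Gpt2, the mitochondrial alanine aminotransferase, was at -0.15 in RNA, 0.08 in footprints and 0.20 in efficiency, also short of the threshold. In efficiency 10 of the 11 enzymes lay below 0, with a median of -0.29, and with library totals as scaling 8 of 11.

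Among the transporters, RNA rose in 5 of 8 members and efficiency fell in the same 5, while 0 of 8 were called in footprints by edgeR. In footprints 6 of 8 were lower at an unadjusted p below 0.05 and DESeq2 called 5 lower. All 8 had a footprint log2 fold change below 0, under TMM, DESeq2 size factors and library totals, with medians of -0.34, -0.35 and -0.23. With TMM the median was 0.25 in RNA and -0.56 in efficiency. In efficiency all 8 were below 0 with TMM and with DESeq2 size factors, and 7 of 8 with library totals. DESeq2 called 6 of 8 lower in efficiency.

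Slc7a1, the carrier of arginine and lysine, had the lowest efficiency value of all members. Its RNA was at 522 and 497 CPM in SCR against 683 and 660 in KO, and its footprints at 1038 and 1123 CPM in SCR against 901 and 749 in KO. RNA was higher and footprints lower in both KO libraries. The log2 fold change was 0.40 in RNA (SE 0.0481, edgeR adjusted p = 0.00458), -0.39 in footprints (SE 0.116, adjusted p = 0.136) and -0.83 in efficiency (SE 0.134, adjusted p = 0.0265).

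Slc7a5 and Slc3a2 encode the light and heavy chains of LAT1, which brings leucine and other large neutral amino acids into the cell. Slc7a5 was at 267 and 252 CPM of RNA in SCR against 367 and 357 in KO, and at 1180 and 1252 CPM of footprints in SCR against 1116 and 1062 in KO. Slc3a2 was at 159 and 160 CPM of RNA in SCR against 213 and 193 in KO, and at 1404 and 1427 CPM of footprints in SCR against 1310 and 1281 in KO. With TMM scaling both chains had higher RNA and lower footprints in each KO library. Scaled by library totals, the footprint groups of both chains overlapped. The log2 fold changes of Slc7a5 were 0.48 in RNA (edgeR adjusted p = 0.00328), -0.16 in footprints (adjusted p = 0.288) and -0.68 in efficiency (SE 0.0947, adjusted p = 0.0208). Those of Slc3a2 were 0.35 in RNA (adjusted p = 0.0117, lost without SCR library 1 of input RNA), -0.13 in footprints (adjusted p = 0.351) and -0.52 in efficiency (SE 0.0971, adjusted p = 0.0361). With library totals as scaling the efficiency change of Slc3a2 was -0.30 and no longer passed (edgeR adjusted p = 0.0841).

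Slc7a11 pairs with the same heavy chain to form the cystine and glutamate exchanger that feeds glutathione synthesis. Its RNA was at 31.6 and 33.1 CPM in SCR against 40.7 and 40.8 in KO, and its footprints at 258 and 292 CPM in SCR against 225 and 209 in KO. The groups were apart in both assays, in opposite directions. The log2 fold change was 0.33 in RNA (SE 0.063, edgeR adjusted p = 0.0154, lost without SCR library 1 or SCR library 2), -0.34 in footprints (SE 0.0861, adjusted p = 0.105) and -0.72 in efficiency (SE 0.11, adjusted p = 0.0234).

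Slc38a2, the sodium-coupled carrier SNAT2 of small neutral amino acids, was at 522 and 512 CPM of RNA in SCR against 579 and 575 in KO, and at 975 and 1056 CPM of footprints in SCR against 834 and 698 in KO. Again RNA was higher and footprints lower in both KO libraries. The RNA log2 fold change of 0.16 (SE 0.0432, edgeR adjusted p = 0.0478) was lost without SCR library 1 or SCR library 2 and with library totals as scaling. The efficiency change was -0.61 (SE 0.128, adjusted p = 0.0468). That call was lost with library totals, without any 1 of the 4 input RNA libraries and without SCR library 2 of footprints.

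The other transporters were not called by edgeR with TMM in any comparison. DESeq2 called Slc1a4 and Slc1a5 lower in footprints and Slc1a4 lower in efficiency, and Slc1a4 was also lower in the authors' deposited table (log2 fold change -0.52, adjusted p = 0.00223). Slc1a5, the ASCT2 carrier of glutamine, was at 94.2 and 89.5 CPM of RNA in SCR against 84.2 and 83.3 in KO, and at 436 and 459 CPM of footprints in SCR against 371 and 331 in KO, lower in KO in both assays. Its log2 values of -0.13 in RNA and -0.35 in footprints (edgeR adjusted p = 0.0931) did not pass, and with library totals as scaling Slc1a5 was called lower in RNA. Slc1a4, a carrier of alanine, serine and cysteine, was at 0.12 in RNA, -0.34 in footprints and -0.50 in efficiency (adjusted p = 0.0571). Slc6a9, the glycine transporter GlyT1, was at -0.19, -0.32 and -0.18.

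**Figure D3:**
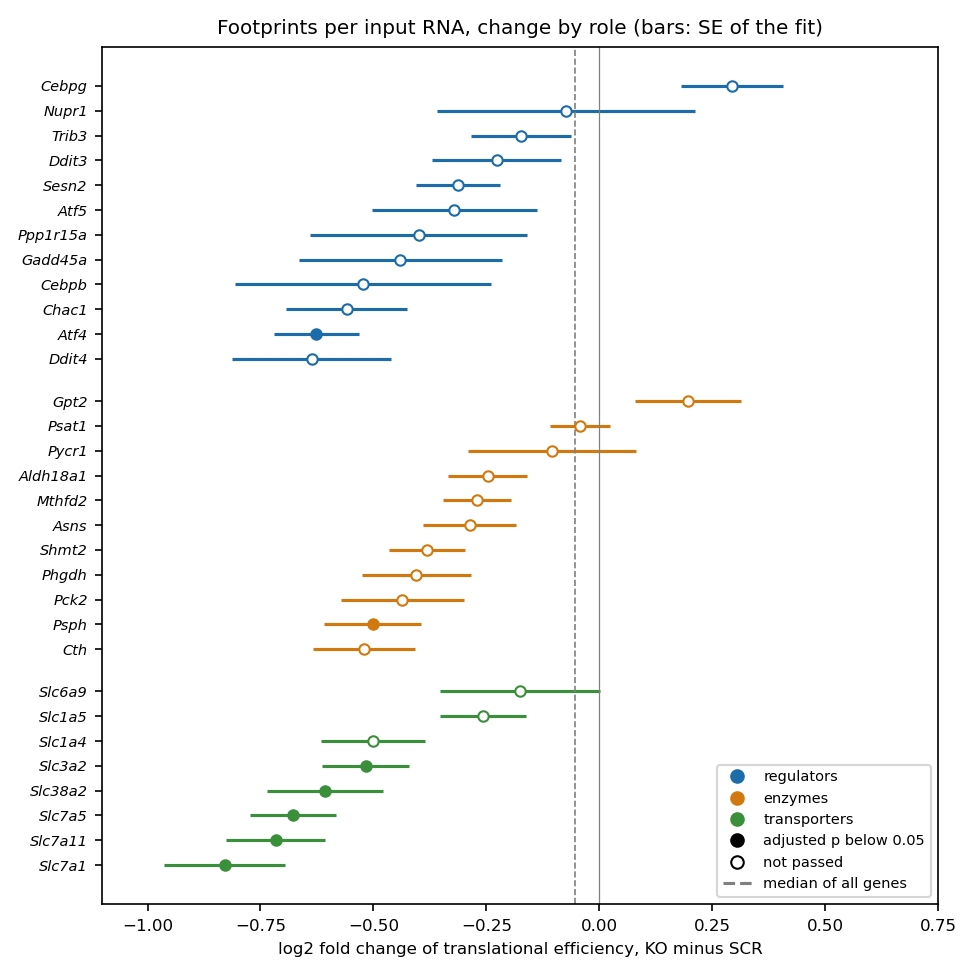
Log2 fold change of translational efficiency (KO minus SCR, x axis) of the 31 tested members by role; bars are the SE of the fit, filled points passed the edgeR test and the dashed line is the median of all genes at -0.05. Of the 31 members, 29 lie below 0, and 5 of the 7 filled points are transporters.

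The authors' deposited table of translational efficiency gives 31 of the members an adjusted p. In it 29 had a log2 fold change below 0 and 11 were lower at an adjusted p below 0.05, where 8.69% of all 16872 genes with an adjusted p were lower. The 7 members called here were among the 11, together with Chac1, Cth, Shmt2 and Slc1a4. Slc7a1 went from a ratio of 1.19 in SCR to 0.661 in KO in that table, Slc7a5 from 2.63 to 1.63 and Slc3a2 from 4.99 to 3.45. The table is made from the same libraries and is no second experiment.

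In SCR cells most members carried many footprints for their RNA. The ratio of footprint CPM to input RNA CPM, taken from library totals, had a median of 0.572 over the 11847 genes of at least 1 CPM in both assays. Of the 31 members ranked, 27 lay above that median, with a median of 1.99. The ratio was highest in Pycr1 (9.65), Slc3a2 (8.35), Slc7a11 (7.99) and Nupr1 (6.57), and lowest in Phgdh (0.213). Its range over the 4 pairs of SCR libraries was 8.76 to 10.7 in Pycr1, 8.3 to 8.39 in Slc3a2 and 0.206 to 0.219 in Phgdh. The ranges of Slc3a2 and Slc7a11 (7.38 to 8.63) overlapped, and that of Nupr1 (4.94 to 8.90) overlapped those of Pycr1, Slc3a2 and Slc7a11. Input RNA counts also cover untranslated ends, so a gene with long ends has a lower ratio, and its part in these ranks was not tested.

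All 8 transporters lay above the median of all genes, with a median of 4.57, as did 10 of 11 enzymes (median 1.90) and 9 of 12 regulators (median 1.04). Atf4 was at 0.699 (0.655 to 0.747). Below the median of all genes were Cebpg (0.482), Ppp1r15a (0.436), Cebpb (0.36) and Phgdh. Per kilobase of coding sequence, the footprint level in SCR cells was 835 CPM for Slc3a2, 792 for Slc7a5, 672 for Slc38a2 and 579 for Slc7a1, above the 297 of Asns, the highest enzyme. The footprints of the gene were divided by the length of its longest listed coding sequence, without telling apart those on other ORFs. In KO cells these levels were 765, 709, 506 and 442 CPM per kilobase, and 327 for Asns, so the order of these 5 genes was kept.

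**Figure D4:**
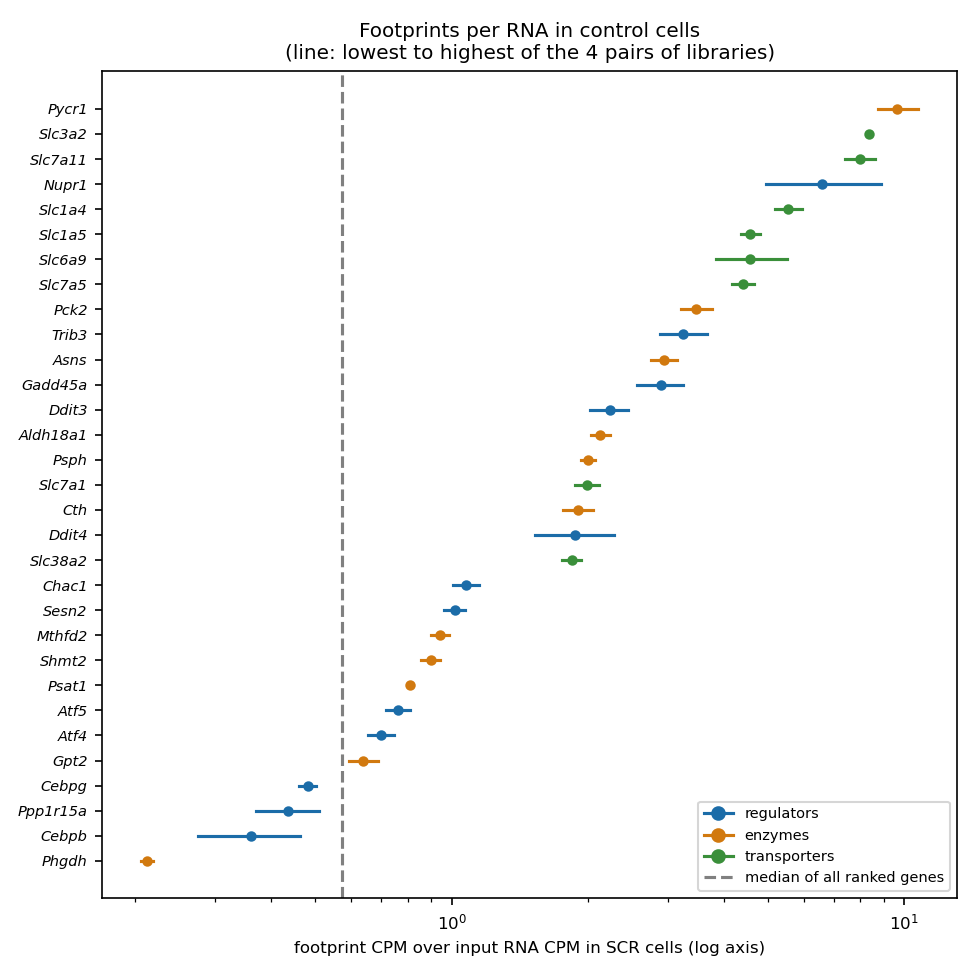
Footprint CPM over input RNA CPM in SCR cells (log axis) for the 31 members ranked, coloured by role; points are the ratio of group means, lines run from the lowest to the highest of the 4 pairs of libraries and the dashed line is the median of 11847 genes. The 8 transporters and Pycr1 lie to the right of the dashed line, Phgdh to its left at 0.213.

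The authors' deposited lists of translated ORFs held 33 non-annotated ORFs in members (GRCm39), of 12 to 59 codons among those upstream of a coding sequence. Of the 31 members with a listed coding sequence, 18 had at least 1 upstream ORF, against 30.3% (3715 of 12270) of all genes with a listed coding sequence. There were 29 upstream ORFs, 3 of which the authors typed as overlapping the coding sequence, and 4 downstream. By role, 7 regulators, 5 enzymes and 6 transporters had one. The genome sequence of these ORFs was not used here, so they are given by position.

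Atf4 had a separate and an overlapping ORF: an upstream ORF of 21 codons at chr15:80139729-80139791 and one of 59 codons that runs into the coding sequence, spanning chr15:80139882-80140579 with an intron. Atf5, also known for control by upstream ORFs, had an ORF of 58 codons that the authors typed as overlapping and a separate one of 19. The ORF of 58 codons starts 2906 genomic bases before the longest listed coding sequence of Atf5 and ends before that sequence begins. Ddit3 had an upstream ORF of 34 codons, and Ppp1r15a a pair of 26 and 34 codons. A second gene entry named Ddit3 has a coding sequence that overlaps this upstream ORF. Its footprint counts, 12 and 5 in the SCR libraries against 12 and 19 in KO, with at most 1 count of input RNA per library, stayed out of the Ddit3 values above.

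Of the 33 ORFs, 4 were in the authors' deposited list named for larger values in KO (1383 ORFs), 6 in the list named for larger values in SCR (1614 ORFs) and 23 in neither. The share of all non-annotated ORFs in these lists was not counted, so no excess in members can be read from these counts. In the KO list were ORFs of Asns (13 codons), Ppp1r15a (34), Slc6a9 (55) and Slc7a11 (35). In the authors' deposited table Slc6a9 had 246 P-sites in the reading frame, 92.5% of all P-sites on the ORF, which starts at CTG. The Slc7a11 ORF, at chr3:50397918-50398022, had 18 in frame (85.7%), and that of Asns 29 (82.9%). The Ppp1r15a ORF had 21 in frame, 34.4% of its P-sites, against 6 and 34 in the other frames.

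In the authors' deposited SCR list were 2 ORFs of Trib3 and 1 each of Chac1, Psph, Pycr1 and, downstream, Slc7a5. The Trib3 ORF of 13 codons had the most P-sites, 303 in frame (76.3%) with an RPKM of 90.6, and its neighbour of 12 codons had 90 (74.4%) with an RPKM of 29.1. Both start at CTG. The overlapping ORF of Chac1 (43 codons, CTG) had 15 in frame (57.7%). The lists give no value per library, so no test between genotypes was made.

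**Figure D5:**
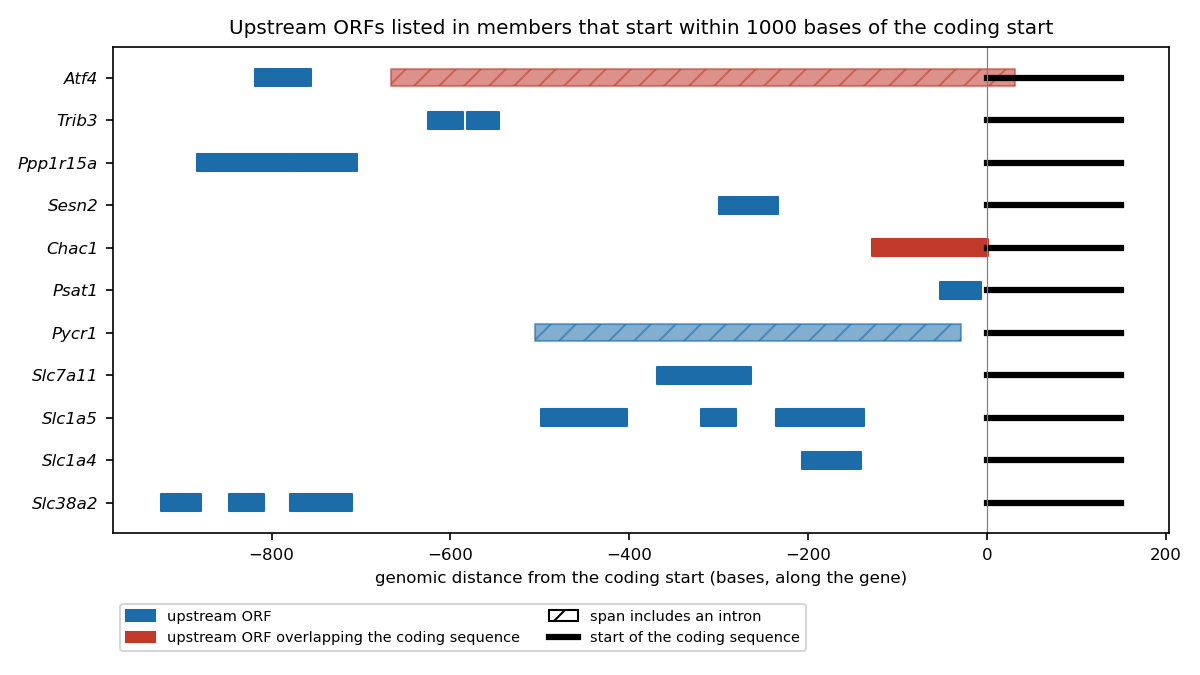
Genomic position (bases from the coding start, along the gene) of listed upstream ORFs that start within 1000 bases of it; blue bars lie apart from the coding sequence, red bars overlap it, hatched spans include an intron and black lines mark where the coding sequence begins. Slc1a5 and Slc38a2 have 3 each, and the red bars of Atf4 and Chac1 reach the coding start.

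The difference in efficiency between members with and without a listed upstream ORF was not tested. The 18 members with one had a median efficiency log2 fold change of -0.32, and 5 fell. The 13 without had a median of -0.44, and 2 fell (Slc3a2 and Slc7a5). Over all genes with a listed coding sequence the medians were -0.08 with (n = 3707) and -0.09 without (n = 8224). Of those with an upstream ORF 244 fell and 54 rose, and of those without 430 fell and 96 rose.

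Other genes of the pathway were read in the same fits, in 3 lists. For comparison, edgeR called the RNA of 9.56% of all tested genes higher and of 7.21% lower. Efficiency was called higher for 0.788% and lower for 3.4%, footprints for 0.51% and 1.78%. With DESeq2, footprints were higher for 415 and lower for 966 of 16878 genes. Its efficiency calls were 454 higher and 1409 lower of 23211. Whether the lists exceed these shares was not tested. Over the 3 lists, 16 genes were called in input RNA, which became 4 without SCR library 1 and 4 without SCR library 2. The 8 falls in efficiency became 0 without SCR library 1, SCR library 2 or KO library 1 of input RNA and 5 without SCR library 2 or KO library 1 of footprints. With library totals as scaling efficiency fell in 2 (Gcn1 and Ppp1r15b) and rose in 2 (Eif2ak2 and Wars), and footprints rose in 2 (Denr and Wars).

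Of 11 aminoacyl-tRNA synthetases known as ATF4 targets, 5 rose in input RNA and 0 fell, with a median log2 fold change of 0.22. Aars, which charges the transfer RNA of alanine, was at 215 and 210 CPM in SCR against 312 and 298 in KO (0.52, SE 0.0483, edgeR adjusted p = 0.00216). Gars (0.30), Yars (0.35) and Mars1 (0.29) also rose, and so did Sars. Both KO libraries of Aars lay above both SCR libraries. In footprints 0 of the 11 were called by edgeR, with 3 higher at an unadjusted p below 0.05 and 3 called higher by DESeq2. In efficiency Aars (-0.40, adjusted p = 0.0314) and Mars1 (-0.49, adjusted p = 0.0403) fell. Both calls ended with library totals as scaling, where Wars was called higher, as it was by DESeq2.

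Of 16 tested further ATF4 targets, 5 rose in input RNA and 0 fell, with a median of 0.15; 2 were lower at an unadjusted p below 0.05 and DESeq2 called 1 lower. Eif4ebp1, which holds back cap-dependent initiation, was at 62 and 58.8 CPM in SCR against 80.4 and 80.1 in KO (0.41, SE 0.0559, edgeR adjusted p = 0.0064). Bcat1 (0.34), Got1 (0.27) and Mthfd1l (0.24), enzymes of branched-chain amino acids, aspartate and folate, also rose, and so did Gdf15, a secreted stress factor. In footprints edgeR called 0 of 15, with 3 higher and 3 lower at an unadjusted p below 0.05, and DESeq2 called 3 lower. In efficiency Gdf15 (-1.27), Lonp1, a mitochondrial protease (-0.47), and Mthfd1l (-0.39) fell, and all 3 calls ended with library totals as scaling.

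Of 22 genes of the eIF2 kinases, eIF2 and its exchange factor eIF2B, and reinitiation, 5 rose and 1 fell in input RNA, with a median of 0.11. Gcn1, which activates the kinase GCN2, was at 296 and 291 CPM in SCR against 390 and 359 in KO (0.35, SE 0.0541, edgeR adjusted p = 0.00876). Eif2b4 and Eif2b1, subunits of eIF2B, rose by 0.47 and 0.31, and Ppp1r15b, the constitutive partner of the eIF2 phosphatase, by 0.32. Denr also rose, and Eif2ak2, the kinase PKR, fell by 0.40. In footprints edgeR called 0 of 22, with 7 higher and 3 lower at an unadjusted p below 0.05, and DESeq2 called 3 lower. In efficiency Ppp1r15b (-0.81, adjusted p = 0.0205), Gcn1 (-0.61) and Eif2b4 (-0.57) fell. None of the 22 rose by edgeR, with 2 higher at an unadjusted p below 0.05 and 1 called higher by DESeq2.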

How the data were processed

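The members and the other gene lists were chosen with earlier results of these data known. Every member was named, with values per library for those called in any fit; in each other list up to 4 genes of smallest p per fit were named, with a few more called genes. The authors' gene tables hold expected counts, written as whole numbers and not normalized. Per the submitters' processing notes, STAR 2.7.10a, StringTie 2.1.7 and GRCm39 were used, with no role stated. For translational efficiency the authors' deposited table holds ratio values for SCR and KO, the log2 of their fold and a p-value. For listed ORFs the deposited files hold a P-site count in each frame, an RPKM and an adjusted p-value, read here as covering all libraries. The authors' deposited position files have a score column that is 0 throughout. Which tools made the efficiency table and called the ORFs is not given.

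Counts were fitted in R 4.3.3 with edgeR 4.0.16 (TMM scaling, filtering by expression with a minimum count of 10, dispersion trend, quasi-likelihood F test, Benjamini-Hochberg adjustment over all genes). Each assay had a fit of its own, and another fit over all 8 libraries tested the genotype by assay interaction, the change in translational efficiency. Log2 fold changes are KO minus SCR. DESeq2 1.42.0, other scalings, no filter, a replicate block and leaving out each library were alternatives. The scripts were tested on simulated counts in which 200 genes per fit were changed. Log2 fold changes of 1 in either direction were found in 57% for input RNA, 55% for footprints and 22% for efficiency. The changed genes were drawn at random from all genes of each fit, so these shares are not the rate for the members. All tested members had log2 fold changes smaller than 1 in the main fits. A missing call does not show that a gene was unchanged. Gene and ORF tables were joined in Python 3.11.15. Blood and single-cell samples were not analysed here.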

Additional observations from a re-analysis of the deposited data

How the results depend on the processing

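All members called in a comparison kept their direction in the alternatives run. The 13 RNA calls became 8 without the filter on low counts, where 28984 genes were tested, and 7 to 14 on leaving out 1 library (7 without SCR library 1, 8 without SCR library 2). The 2 footprint calls became 1 with library totals and 7 with DESeq2, and 0 to 0 on leaving out any 1 library. The 7 efficiency calls became 14 with DESeq2 and 11 by the adjusted p of the authors' deposited table, and 0 to 8 on leaving out 1 library (0 without SCR library 1, SCR library 2 or KO library 1 of input RNA, 4 without KO library 2). In those first 3 fits edgeR called 3, 0 and 0 of all genes. With library totals 4 members fell and 1 rose in efficiency. Over all genes DESeq2 called 415 higher and 966 lower in footprints, where edgeR called 86 and 301. In efficiency DESeq2 called 454 higher and 1409 lower, where edgeR called 183 and 790. Over only the 13779 genes that passed the filter in both assays, an alternative chosen after seeing the data, 9 members were called in efficiency. Of all genes in that fit, 1062 were called lower and 502 higher. For the other pathway genes, DESeq2 size factors gave the main counts (16, 0 and 8 in input RNA, footprints and efficiency), and the alternatives below were chosen after seeing the data. Input RNA gave 7 calls without the filter and 4 to 18 on leaving out 1 library. Footprints gave 2 with library totals, 9 with DESeq2 and 4 without the filter. Efficiency gave 4 with library totals, 15 with DESeq2 and 0 to 10 on leaving out 1 library.

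The labels do not say that replicate numbers pair libraries. Same-numbered libraries of both genotypes deviated from their group means with a correlation across genes of 0.0592 (input RNA) and 0.0666 (footprints); genes are not independent replicates. With the replicate number as a block, 14 members were called in input RNA and 0 in footprints and 0 in efficiency, and of the other pathway genes 19, 0 and 0; over all genes edgeR then called 2114 higher and 1545 lower in input RNA and none in the other fits. The 2 KO footprint libraries, at 14555963 and 21366608 counts, were the shallowest. For uncalled members the direction was the same in every setting in 10 of 18 in input RNA, 20 of 29 in footprints and 19 of 24 in efficiency.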
